A study of Mus musculus with 6 samples.

Results

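Tek encodes the receptor tyrosine kinase of the angiopoietins, also called Tie2, and is examined here in 2 mouse ovarian cancer cell lines grown as tumorspheres, which are floating clusters of tumor cells. It was chosen by its own row of the deposited table, and is 1 of the 7320 genes listed there. Its levels in this contrast had been seen before it was chosen, so they are given as a description with no test. ID8 is a line of transformed epithelial cells of the ovarian surface of C57Bl6 mice, and KMF is a line that was selected by aggressive growth of ID8 cells in mice of that strain. RNA of both lines came from tumorspheres kept for 5 days in a serum-free medium, without any treatment. The ID8 libraries were made at passages 23, 24 and 35 (replicates 1, 2 and 3) and the KMF libraries at passages 14, 17 and 22. Each group is 1 cell line, so the 3 libraries of a line sample its cultures and not separate tumors. No KMF library was at the same passage as an ID8 library, and line and passage cannot be told apart.

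Tek sits in the membrane of endothelial cells, where the angiopoietins bind it. Angpt1 activates it, and Angpt2 can activate or block it depending on context. The active receptor recruits adaptors such as Grb2, Shc1 and Dok2, signals through PI3-kinase and Akt, and thereby keeps FOXO transcription factors out of the nucleus, which stabilises vessels. Tie1 is its related partner receptor and has no clear ligand of its own. Outside the endothelium, Tek is known from blood stem cells and a class of monocytes.

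On GRCm38, Tek (ENSMUSG00000006386) lies on the plus strand of chromosome 4, from 94739289 to 94874976, and the deposited table gives it a length of 4654 bases. No other gene of GENCODE release M21 overlaps it, so that no reads had to be shared with another gene at the locus. The 250 bases before its start are shown because the ETS transcription factors, which activate endothelial genes, bind sites with the core GGAA and are among the gene groups described further on. The sequence is from RefSeq on GRCm38.p6, chr4:94739039-94739288, plus strand, 5′ to 3′, with each GGAA core in capitals, here as TTCC because both lie on the minus strand.
Tek promoter: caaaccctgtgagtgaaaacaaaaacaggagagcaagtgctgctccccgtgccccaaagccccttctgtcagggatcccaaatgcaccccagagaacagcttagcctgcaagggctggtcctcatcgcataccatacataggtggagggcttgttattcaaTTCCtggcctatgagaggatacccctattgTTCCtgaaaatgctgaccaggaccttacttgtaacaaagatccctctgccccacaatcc
Both strands were searched for the ETS core GGAA, for its extended forms with CA or CC before it, and for the letters of the GATA, FOX, AP-1 and TATA box motifs. GGAA was found 2 times, at positions -89 to -86 and -59 to -56 from the start. A match to GGAA was present in 93.5% of 32851 mouse promoter windows of the same length, with a median of 3 per window. Both matches also read CAGGAA, which contains GGAA and occurred in 25.7% of the windows. The other motifs had no match in this window. Of all windows, 12.0% held CCGGAA, the other extended ETS form, 9.99% held AGATAA for GATA factors, 3.17% held GTAAACA for FOX factors, 6.75% held TGANTCA for AP-1, and 12.4% held TATAAA for the TATA box.

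Tek was at the limit of detection in every ID8 library and well expressed in every KMF library. ID8 replicates 1, 2 and 3 held 2 counts each, and the exact Poisson interval of such a count is 0.242 to 7.22 (95%, counting error only). KMF replicates 1, 2 and 3 held 5224, 3476 and 4284 counts. In FPKM (fragments per kilobase of gene and per 1000000 fragments), Tek was at 0.0146, 0.0178 and 0.0167 in the ID8 libraries, where 3 counts would correspond to 0.0219, 0.0267 and 0.0251. It was at 47.6 in KMF replicate 1, 32.3 in replicate 2 and 27.7 in replicate 3. The groups did not overlap, and the lowest KMF library stood far above the highest ID8 library. The means were 35.9 ± 10.4 FPKM in KMF (SD, n = 3) and 0.0164 ± 0.00164 FPKM in ID8 (SD, n = 3). Summed over the 3 libraries of a line, 12984 counts in KMF stood against 6 in ID8. Scaled to the library totals this is a ratio of 2147, with an exact counting interval of 986 to 5852 (95%), whose width is set by the 6 ID8 counts. In bulk RNA such as this, a few cells with much Tek RNA and many cells with little cannot be told apart.

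**Figure D1:**
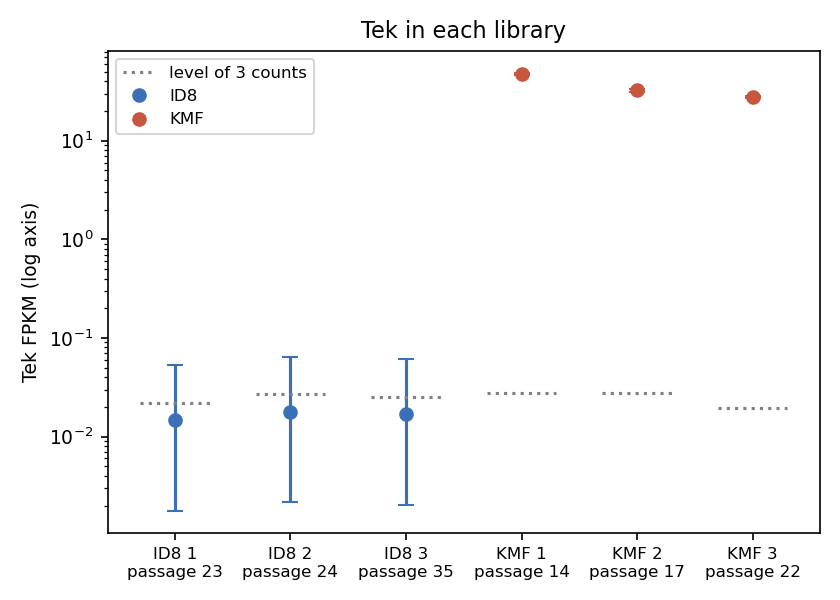
Tek level in FPKM on a log axis for each library, labelled by line, replicate and passage. Points are library values, bars are exact Poisson 95% intervals of the counts, and dotted lines mark the level of 3 counts. The ID8 libraries lie between 0.0146 and 0.0178 FPKM, below the dotted lines, and the KMF libraries between 27.7 and 47.6 FPKM.

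By mean FPKM in KMF, Tek ranked 1274 of the 7320 listed genes, so that 82.6% of them were lower. The median listed gene was at 8.50 FPKM in KMF. The genes next to Tek in this order were Wdr82 (35.88 FPKM) and Tomm20 (35.88 FPKM) above, and Reep4 (35.86 FPKM) and Farsb (35.77 FPKM) below. These neighbours differ from Tek by far less than its SD among libraries, so its place in the order is not fixed to the nearest rank. In single libraries, Tek ranked 931 in KMF replicate 1, 1390 in replicate 2 and 1658 in replicate 3. In ID8 it ranked 7221, with 99 listed genes lower. Among the 499 listed genes of chromosome 4, Tek ranked 81 in KMF.

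Among the KMF libraries, Tek was highest in replicate 1, at passage 14, where its level was 1.72 times that of replicate 3, at passage 22. With 1 library at each passage, passage and culture cannot be told apart. The coefficient of variation of Tek over the KMF libraries was 29.0%. Of the 1817 other listed genes within 2-fold of its mean level in KMF, 98.1% varied less, and their median coefficient of variation was 7.07%. Every listed gene had passed the authors' own comparison of the lines, which favours genes that vary little unless their step is large. This set is therefore no neutral measure of the spread of Tek. Ly6c1, Elf3 and Rbp7, which had a like step and are described below, had coefficients of 30.2%, 41.2% and 21.7%. Receptor kinases of similar level were steadier, with coefficients of 5.59% for Fgfr3, 18.5% for Epha2 and 8.59% for Fgfr1. Of the genes nearest to Tek in pattern, described below, Ndufa4l2 and Cxcl1 varied as much or more (29.9% and 51.9%). Piwil2 and AI427809 varied less (7.12% and 2.03%).

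**Figure D2:**
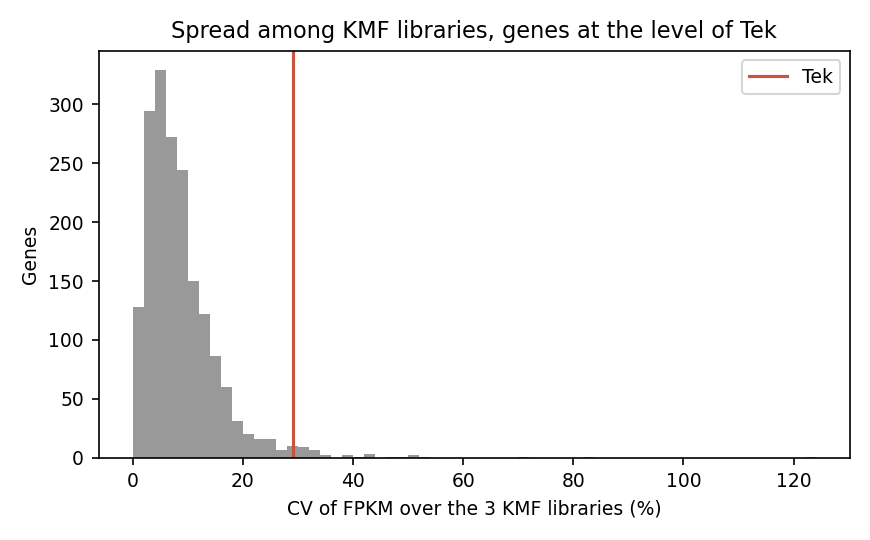
Histogram of the coefficient of variation (CV, in percent) of FPKM over the 3 KMF libraries, for the 1817 other listed genes within 2-fold of the mean level of Tek. Bars count genes in bins of 2 percentage points, and the vertical line marks Tek at 29.0%, in the upper tail. All genes shown had passed the authors' comparison of the lines, which favours genes that vary little.

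Few genes went from so low to so high a level. In all, 132 listed genes had 3 counts or fewer in every ID8 library and a higher mean in KMF, and their median level in KMF was 0.344 FPKM. Among them 22 were above 1 FPKM in KMF, 5 were above 10 FPKM, and 14 lay on chromosome 4, which holds 499 of the 7320 listed genes. Tek had the second highest KMF level of these genes, after Ndufa4l2, a mitochondrial protein gene induced by low oxygen, and before Ly6c1, Elf3 and Rbp7. Ndufa4l2 had 0, 0 and 1 counts in the ID8 libraries and 97.0, 169 and 113 FPKM in the KMF libraries. It was lowest in KMF replicate 1, where Tek was highest. Ly6c1, a surface antigen gene of endothelial and myeloid cells, had 36.5, 25.9 and 20.2 FPKM in KMF replicates 1, 2 and 3, which is the order of Tek and of 15.1% of the 7320 listed genes.

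The genes with the pattern nearest to Tek over the 6 libraries, by Euclidean distance of log2(CPM + 0.5), with CPM meaning counts scaled to 1000000 fragments, were Piwil2 (distance 1.17), Ndufa4l2 (1.31), Cxcl1 (1.32), Fgfr3 (2.35) and the chromosome 4 gene AI427809 (2.41). The median distance of all listed genes was 12.0. Piwil2, a germline factor of the piRNA pathway, had 8, 8 and 9 counts in ID8 and 3225, 2761 and 4447 in KMF. Cxcl1, a neutrophil chemokine, had 293, 142 and 117 FPKM in KMF replicates 1, 2 and 3, and so was also highest in the first. Fgfr3 and AI427809 were nearly level among the KMF libraries, with 49.1 to 54.9 FPKM and 32.5 to 33.8 FPKM. This nearness rests mostly on the step between the lines. With log2(CPM + 0.1), 4 of the 5 genes stayed among the nearest 5, and Slurp1 replaced Fgfr3. With log2(FPKM + 0.1), which changes both the unit and the pseudocount, 2 of the 5 stayed, and Ly6c1, Slurp1 and Krt14 replaced the rest.

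For the other genes of the pathway, the lines were compared with edgeR's quasi-likelihood test with Benjamini-Hochberg adjustment, and genes with an adjusted p under 0.05 are termed called. The table holds only genes that its authors had already called on these libraries, so 92.9% of the 6967 genes that passed the filter on low counts were called. Of these genes, 45.4% were called higher in KMF and 47.5% lower, and the median log2 fold change was -0.23. A share of called genes near those values is no result about a gene group, and what is informative is the level, direction and size of single members. A gene of a group that is outside the table was not analysed here.

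Of the 10 ligand genes examined, the angiopoietins and their relatives the angiopoietin-like proteins, 3 were listed, and none of these is an angiopoietin. Angpt1, Angpt2 and Angpt4 were not analysed here. Angptl4, an inhibitor of lipoprotein lipase, was at 79.1, 80.7 and 86.8 FPKM in ID8 and at 28.9, 26.2 and 35.1 FPKM in KMF. It fell by 1.41 on the log2 scale (SE 0.11, adjusted p = 6.1e-05, edgeR, n = 3 per line), without overlap of the groups. Angptl7 fell by 4.04 (SE 0.70, adjusted p = 0.00271, edgeR), from 91, 99 and 40 counts to 3, 9 and 1. Angptl2, a secreted inflammatory factor, had a mean of 10.5 ± 3.23 FPKM in KMF against 6.66 ± 1.37 in ID8 (SD, n = 3), and did not pass (log2 fold change 0.70, SE 0.24, adjusted p = 0.0567, edgeR). Its adjusted p ranged from 0.0143 to 0.163 over the alternative settings, and it passed in 4 of 14. These were the fits without ID8 replicate 2 (0.035), without KMF replicate 2 (0.0143), with DESeq2 (0.0273) and with no low-count filter (0.0497).

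Among the partners of the receptor, Tie1 was near the limit of detection in both lines. It had 3, 0 and 2 counts in ID8 and 5, 17 and 15 counts in KMF, or 0.110 ± 0.0619 FPKM in KMF (SD, n = 3), and it did not pass the filter on low counts. In the 7 alternatives that fitted it, its adjusted p lay between 0.0203 and 0.0576, and it was called in 5 of these, those without ID8 replicate 3 or KMF replicate 1 included. Its summed CPM was 7.34 times higher in KMF, with an exact counting interval of 2.88 to 23.9. Tek in KMF stood at 35.9 FPKM, so its level per length was not accompanied by a like level of Tie1. Of the sheddases, which cut receptors from the cell surface, Adam17 rose from 13.6 ± 0.417 to 20.1 ± 0.934 FPKM (log2 fold change 0.60, SE 0.07, adjusted p = 0.00052, edgeR). Mmp14, a membrane-bound matrix protease, fell from 36.4 ± 1.41 to 22.3 ± 3.81 FPKM (log2 fold change -0.67, SE 0.13, adjusted p = 0.00462, edgeR). For the other 8 partner genes examined, among them the phosphatase gene Ptprb, no values were analysed here.

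Of 29 adaptors, kinases and effectors that act below Tek, 14 were listed and fitted, and 8 were called higher in KMF and 4 lower. Their median log2 fold change was 0.24. The split was 5 higher and 5 lower with upper quartile scaling, and 5 higher and 4 lower without ID8 replicate 1, so the balance of the group depends on the scaling and on that library. Shc1, an adaptor that couples receptors to Ras, was at 49.8, 45.7 and 56.3 FPKM in ID8 and at 98.0, 108 and 104 FPKM in KMF, a rise of 1.07 on the log2 scale (SE 0.09, adjusted p = 8.1e-05, edgeR). Nck1, an adaptor to the actin cytoskeleton, rose by 1.15 (SE 0.13, adjusted p = 0.000375, edgeR). Grb14, an adaptor that binds Tek and the insulin receptor, went the other way. It had 91, 79 and 31 counts in ID8 and 1 count in each KMF library, a ratio of 67.5 in CPM with an exact counting interval of 22.8 to 330.2. Dok2, the docking protein through which Tek reaches Nck1, was at 5.91 FPKM in ID8 and 8.03 FPKM in KMF, and Akt2 was at 33.7 and 51.5 FPKM. Both were called higher in KMF (adjusted p = 0.0426 and 0.000205, edgeR), but the call of Dok2 was lost in 8 of 14 alternatives, among them those without ID8 replicate 1, ID8 replicate 2, KMF replicate 2 or KMF replicate 3 (adjusted p = 0.022 to 0.163 over all of them). Also called higher was the PI3-kinase subunit gene Pik3cb, at 2.86 and 4.98 FPKM (adjusted p = 0.00491, edgeR). Grb2 was called lower, at 55.2 and 38.6 FPKM (adjusted p = 0.0022, edgeR), and so were the transcription factor genes Foxo3 and Foxo4.

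Among 24 genes that FOXO factors are known to activate, 13 were listed and fitted, with 3 called higher in KMF and 9 lower, and a median log2 fold change of -0.52. The count of genes called lower moved with the libraries used, from 9 to 5 without KMF replicate 2, to 6 without ID8 replicate 3, KMF replicate 1 or KMF replicate 3, and to 7 without ID8 replicate 1 or ID8 replicate 2, with 3 or 4 higher in each. The split was the same with upper quartile scaling, with library totals alone and with DESeq2. The largest fall was that of Gadd45a, a stress-induced growth arrest gene, from 61.1, 50.4 and 51.6 FPKM to 8.01, 7.68 and 5.17 FPKM (log2 fold change -2.93, SE 0.18, adjusted p = 3e-05, edgeR). Sesn1, which restrains growth signalling through mTOR, and Fbxo32, a ubiquitin ligase gene of muscle wasting, fell by 1.40 and 1.13 on the log2 scale. Klf4, a pluripotency and endothelial transcription factor, Irs2, an adaptor of the insulin receptor, and Sesn3 rose by 2.20, 1.56 and 1.41. Klf4 was at 36.3, 45.3 and 53.2 FPKM in ID8 and at 198, 208 and 196 FPKM in KMF. All 6 of these genes were called, and members of the group thus changed strongly in both directions.

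Of 26 ETS factors, whose core motif stands 2 times in the promoter sequence given above, 14 were listed and 13 were fitted. A total of 10 were called higher in KMF and 2 lower, with a median log2 fold change of 0.59. The split was 6 and 2 both with a minimum of 10 counts per library and with limma on log2(FPKM + 1), 8 and 3 with upper quartile scaling, 9 and 4 without ID8 replicate 3, and 10 and 4 with DESeq2. Elf3, an epithelial ETS factor, had 3, 3 and 1 counts in ID8 and 594, 1235 and 2064 counts in KMF, or 12.0, 25.5 and 29.7 FPKM. Its ratio in CPM was 552 (exact counting interval 268 to 1373). Within KMF it was lowest in replicate 1, where Tek was highest. The epithelial factors Spdef and Ehf rose by 3.86 and 2.05 on the log2 scale (adjusted p = 0.00207 and 0.0147, edgeR) but stayed low, at 0.880 ± 0.471 and 0.312 ± 0.141 FPKM in KMF (SD, n = 3). The call of Ehf was lost without ID8 replicate 1 (adjusted p = 0.0625, edgeR) and without KMF replicate 2 (0.0556), within a range of 0.00598 to 0.0625 over its alternatives. Ets1, which is known for its role in endothelial cells, was called lower in KMF, at 10.3 FPKM in ID8 and 6.22 FPKM in KMF (adjusted p = 0.00272, edgeR). Etv1, the listed ETS factor that was not fitted, had 69, 52 and 10 counts in ID8 and 3, 2 and 1 in KMF. Its ratio of ID8 over KMF in CPM was 22.0 (exact counting interval 9.84 to 61.1). Etv1 was called lower in all 8 alternatives that fitted it.

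Of 18 other transcription factors known for roles in the endothelium, 8 were listed, 5 were called higher in KMF and 3 lower, and the median log2 fold change was 1.22. With a minimum of 10 counts per library the split was 2 and 2. Prdm16 rose most, from 0, 0 and 3 counts in ID8 to 23, 33 and 32 in KMF. This is a ratio of 29.1 in CPM (exact counting interval 9.64 to 143.8), but Prdm16 stayed low, at 0.130 FPKM in KMF. Foxf1, a factor of lung and visceral mesenchyme and endothelium, came next, at 0.265 ± 0.127 FPKM in ID8 and 2.40 ± 0.230 in KMF (log2 fold change 3.23, SE 0.36, adjusted p = 0.00035, edgeR, n = 3 per line). Gata2, a factor of blood and endothelial cells, rose by 2.86 (SE 0.39, adjusted p = 0.000865, edgeR), to 1.77 ± 0.267 FPKM. Epas1, an oxygen-regulated factor known to activate Tek in endothelial cells, rose from 9.20 ± 1.54 to 19.4 ± 0.836 FPKM (log2 fold change 1.12, SE 0.12, adjusted p = 0.000301, edgeR), and Mef2c rose by 1.33. Hey1, a target of Notch signalling, had 80, 54 and 45 counts in ID8 and 1, 2 and 0 in KMF, a ratio of 60.1 (exact counting interval 20.2 to 294.3). Levels of the factors that rose were thus modest beside that of Tek, with Epas1 the only one of those 5 above 3 FPKM in KMF.

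Tek is best known as an endothelial gene, so the other genes that define endothelial cells were examined beside it. Of 28 such markers, 8 were listed, and Pecam1, Cdh5, Flt1, Eng, Vwf, Cldn5 and Emcn were among the 20 that were not analysed here. The 8 listed markers had a summed level of 48.3 to 74.0 FPKM in the ID8 libraries and 32.9 to 43.2 FPKM in the KMF libraries, so their sum was lower in the line with Tek. Kdr, the main VEGF receptor of endothelium, had 2, 10 and 7 counts in ID8 but not 1 count in KMF. This makes its mean at least 2.17-fold lower there against a floor of 3 counts per library, though ID8 replicate 1 was itself under that floor. It did not pass the filter on low counts. Kdr was called lower with DESeq2 (adjusted p = 0.0226) and with no low-count filter (0.0332, edgeR), but not with limma on log2(FPKM + 0.1) (0.138). Most of the summed level came from Esam, an adhesion molecule also found in platelets. It was at 50.2, 51.9 and 30.3 FPKM in ID8 and at 23.9, 27.3 and 20.2 FPKM in KMF, and fell by 0.85 on the log2 scale (SE 0.22, adjusted p = 0.016, edgeR). Its adjusted p ranged from 0.000326 to 0.0592 over the alternatives, and the call was lost without ID8 replicate 1 or without KMF replicate 3.

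Of the remaining endothelial markers, Robo4 and Lyve1 were low in KMF, and the means of Plvap, Flt4 and Apln were above 3 and below 10 FPKM in both lines. Robo4, an endothelial guidance receptor, fell by 3.00 (SE 0.68, adjusted p = 0.00989, edgeR), from 196, 181 and 126 counts to 41, 2 and 17, and Lyve1, a lymphatic marker, fell by 1.76 (SE 0.44, adjusted p = 0.0149, edgeR), from 0.253 to 0.0709 FPKM. The call of Lyve1 was lost with the replicate number as a block (adjusted p = 0.0555, edgeR) and without ID8 replicate 1 (0.072), KMF replicate 1 (0.0607) or KMF replicate 3 (0.0512), with a range of 0.00864 to 0.072 over its alternatives. Plvap, a protein of endothelial fenestrae, was the only one of them called higher in KMF, at 3.02 ± 0.376 FPKM in ID8 and 4.20 ± 0.150 in KMF (log2 fold change 0.52, SE 0.16, adjusted p = 0.0338, edgeR), and 8 of 14 alternatives lost this call (adjusted p = 0.0263 to 0.104 over all), among them those without ID8 replicate 2, ID8 replicate 3 or any 1 of the KMF libraries. Flt4, the VEGF-C receptor, and Apln, the apelin ligand, were lower in mean and did not pass (log2 fold change -0.84 and -0.66, adjusted p = 0.0929 and 0.0716, edgeR). Flt4 passed without ID8 replicate 3 (0.0037) and with DESeq2 (0.02), and ranged from 0.0037 to 0.351. Apln passed in 4 of 14 alternatives, that without KMF replicate 2 included (0.00665), and ranged from 0.00665 to 0.242. No listed marker therefore showed the step that Tek showed. Markers of leukocytes, among which some monocytes carry Tek, were listed for 2 of 16 genes, Cd74 and Mrc1. Both were called lower in KMF, and their summed level was 0.255 to 0.399 FPKM there and 0.988 to 1.76 FPKM in ID8. Whether other cells contributed to the Tek counts was not tested.

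**Figure D3:**
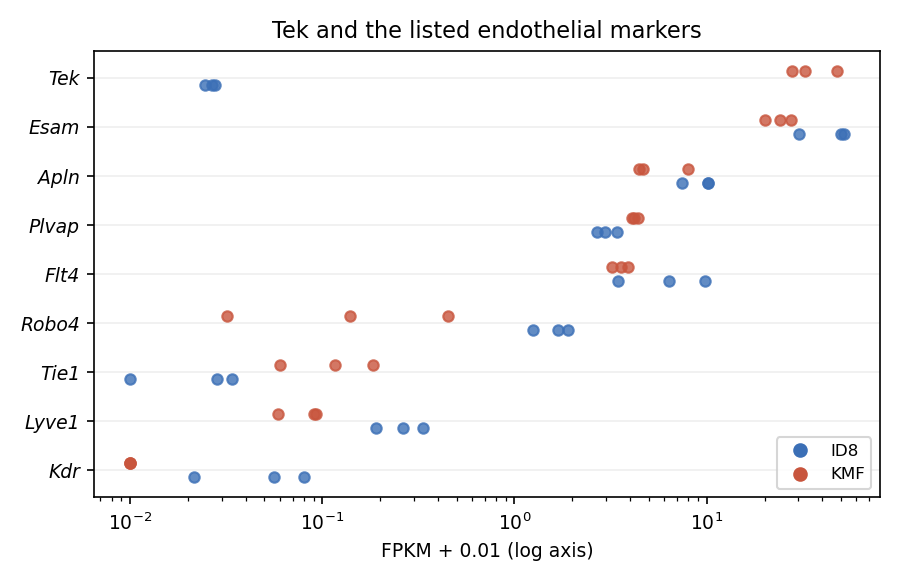
FPKM of Tek and of the 8 listed endothelial markers in every library, on a log axis after adding 0.01, which places a value of 0 at the left edge. Each point is a library, 3 per line. Tek alone moves from the left edge in ID8 to above 27 FPKM in KMF, and Kdr is at 0 in all KMF libraries.

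The labelled origin of the cells could be checked on 14 listed genes of 18 that mark the ovarian surface epithelium or mesothelium. Wt1, Gata4 and Msln, a transcription factor pair and a surface protein of these tissues, were at 108, 98.5 and 34.3 FPKM in ID8 and at 77.3, 47.3 and 91.6 FPKM in KMF. The epithelial markers Cdh1, Epcam and Krt7 were at 8.61, 3.41 and 1.57 FPKM in ID8 and at 0.726, 0.618 and 0.260 FPKM in KMF. Other markers of the list fell further. Aldh1a2, a retinoic acid enzyme, had 1870, 1520 and 245 counts in ID8 and 15, 11 and 4 in KMF. Upk3b, a mesothelial surface protein, had 1744, 2366 and 540 counts in ID8 and 94, 122 and 89 in KMF. ID8 replicate 3 was the lowest of its line for both. Bnc1, a mesothelial and epithelial transcription factor, was at 3.26 FPKM in ID8 and 0.194 FPKM in KMF, and all 3 were called. Of the 13 genes that were fitted, 2 were called higher in KMF and 10 lower, Gata4 and Wt1 among the latter, with the call of Wt1 lost without ID8 replicate 1, ID8 replicate 2, KMF replicate 2 or KMF replicate 3 (adjusted p = 0.00683 to 0.130 over all alternatives). The line with Tek thus had RNA of Wt1, Gata4 and Msln but less of most markers of this list.

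Set among the listed receptor tyrosine kinases, Tek was one of the most abundant in KMF. Of 58 kinases examined, 27 were listed with Tek included, and the order holds only among these, since the other 31 were not analysed here. By mean FPKM in KMF, the order was Axl (161 ± 12.4), Fgfr3 (52.1 ± 2.91), Tek (35.9 ± 10.4), Epha2 (31.4 ± 5.796), Fgfr1 (19.9 ± 1.71), Ephb3 (18.4 ± 0.637), Ptk7 (14.1 ± 1.52) and Igf1r (11.6 ± 1.42), each as mean ± SD of 3 libraries. The libraries of Tek and Epha2 overlapped, with 26.7 to 37.9 FPKM for Epha2, so that these neighbours do not differ beyond their spread. Those of Fgfr3, at 49.1 to 54.9 FPKM, lay above all Tek libraries, and those of Fgfr1 and the kinases after it lay below. In ID8, Tek was 26th of the 27, with Tie1 alone below it. Tek made up 11.1%, 8.76% and 7.49% of the summed FPKM of the 27 listed kinases in KMF replicates 1, 2 and 3.

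All the kinases around Tek changed less than Tek did, and Fgfr3 came nearest to it. Fgfr3, a fibroblast growth factor receptor, had 26, 15 and 27 counts in ID8 and 5247, 4815 and 7739 in KMF, and its log2 fold change was 8.05 (SE 0.14, adjusted p = 2.3e-07, edgeR). Axl, the receptor of Gas6, fell by 0.32 (SE 0.09, adjusted p = 0.0285, edgeR), a call that was lost when ID8 replicate 1, ID8 replicate 3, KMF replicate 2 or KMF replicate 3 was left out (adjusted p = 0.00281 to 0.138 over all alternatives). Epha2, an ephrin receptor, was at 23.5 ± 4.77 FPKM in ID8 and 31.4 ± 5.796 in KMF and did not pass (adjusted p = 0.0969, edgeR), except without ID8 replicate 2 (0.0321, within a range of 0.0321 to 0.259 over the alternatives). Fgfr1, Ptk7 and Igf1r fell by 0.71, 1.05 and 0.75, and Ephb3 rose by 0.85, all called. The other kinases with the largest fold changes were low in at least 1 line. Ddr2, a collagen receptor, rose by 4.40 (SE 0.19, adjusted p = 7.4e-06, edgeR), to 2.42 ± 0.361 FPKM. Kit, the receptor of stem cell factor, fell from 9.77, 8.85 and 4.43 FPKM to 1.32, 0.0908 and 0.304 FPKM (log2 fold change -3.73, SE 0.75, adjusted p = 0.00553, edgeR), and Fgfr2 fell by 3.50 (SE 0.20, adjusted p = 2.2e-05, edgeR). Ephb1 had 84, 65 and 64 counts in ID8 and 1, 1 and 2 in KMF, a ratio of 53.7 (exact counting interval 20.7 to 198.8). Of the 23 listed kinases other than Tek that were fitted, 7 were called higher in KMF and 13 lower.

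**Figure D4:**
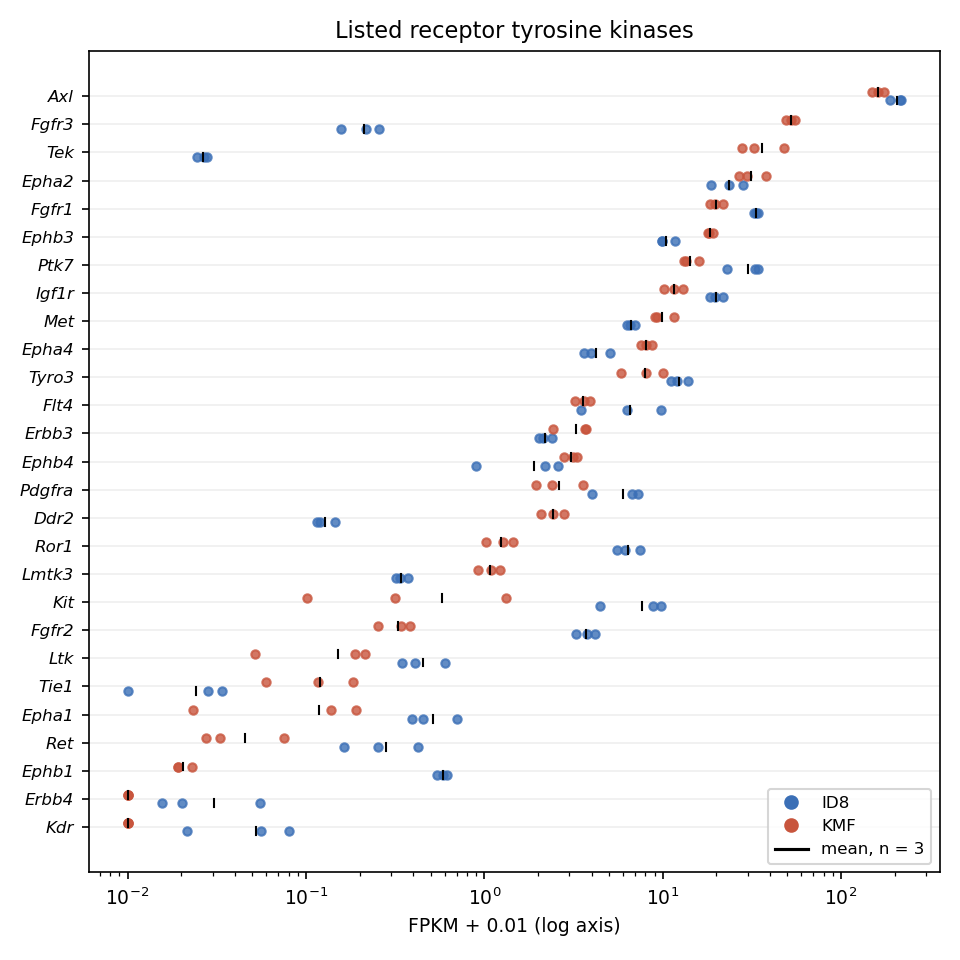
FPKM of the 27 listed receptor tyrosine kinases in every library, on a log axis after adding 0.01, ordered by mean in KMF. Points are libraries, 3 per line, and ticks are means. Tek follows Axl and Fgfr3 in KMF at 35.9 FPKM and is near the left edge in ID8 at 0.0164 FPKM. Fgfr3 shows the next largest rise among these kinases, which is smaller than that of Tek.

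The genes beside Tek on chromosome 4 were examined by their distance from its start. Of 39 other protein-coding genes with a start within 5 Mb, 13 were listed, with 1 listed noncoding gene besides. Of these 14 listed genes, 9 (64.3%) had a higher mean in KMF, against 48.1% of 484 listed genes in the rest of the chromosome and 48.7% of all listed genes. This share rests on 14 genes that are not independent, since Junos overlaps Jun and the Cyp2j genes are near copies. Its difference from the other shares was not tested. The median log2 fold change was 1.85 for the 13 that were fitted, against -0.30 for the rest of the chromosome. No gene in this window had a level step like that of Tek except Cyp2j6.

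The 2 sides of Tek differed in description, which was not tested. Within 10 Mb toward the centromere, 10 genes were listed, 2 were called higher in KMF and 6 lower, and the median log2 fold change was -0.53. Within 10 Mb toward the telomere, 28 were listed and 26 were fitted, 20 were called higher and 6 lower, and the median was 1.89. The nearest listed gene toward the centromere was Ift74, a gene of ciliary transport that starts 125 kb from Tek. It was at 12.6 ± 1.24 FPKM in ID8 and 7.93 ± 0.433 in KMF (log2 fold change -0.62, SE 0.11, adjusted p = 0.00298, edgeR). The next, Tusc1, a putative tumor suppressor, went from 89, 73 and 135 ID8 counts to 0 in all KMF libraries, which is at least 32.5-fold lower against the floor of 3 counts per library. Farther out, Klhl9 fell by 0.44, Gm12603 rose by 0.95, and Zfp352 did not pass (log2 fold change 1.71, adjusted p = 0.0664, edgeR), with 10, 21 and 4 counts in ID8 and 18, 50 and 47 in KMF. Zfp352 passed without ID8 replicate 2 (log2 fold change 2.55, adjusted p = 0.0196, edgeR), without KMF replicate 1 (0.0463) and with the replicate number as a block (0.0364), within a range of 0.0196 to 0.227. The call of Gm12603 was lost without ID8 replicate 1, KMF replicate 1 or KMF replicate 3. It was also lost with the replicate number as a block (adjusted p = 0.0592, edgeR). The adjusted p of Gm12603 was 0.0121 to 0.110 over the alternatives.

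Toward the telomere the first listed genes were higher in KMF. Mysm1, a histone H2A deubiquitinase whose gene starts 239.8 kb away, was at 4.80, 4.20 and 5.13 FPKM in ID8 and at 16.2, 18.4 and 18.3 FPKM in KMF (log2 fold change 1.95, SE 0.09, adjusted p = 1.1e-05, edgeR). Jun, the AP-1 transcription factor, was at 12.2, 13.9 and 10.96 FPKM in ID8 and at 76.9, 34.1 and 32.2 FPKM in KMF (log2 fold change 1.99, SE 0.34, adjusted p = 0.00244, edgeR). Like Tek, Jun was highest in KMF replicate 1, and Mysm1 was lowest there. Junos is an antisense transcript that overlaps Jun. Its counts, 11, 8 and 13 in ID8 and 35, 43 and 43 in KMF, cannot be separated from reads of Jun where counting did not use strand. Fggy, a carbohydrate kinase gene, fell by 1.04 (SE 0.29, adjusted p = 0.0222, edgeR). This call was lost without ID8 replicate 1, ID8 replicate 2, KMF replicate 2 or KMF replicate 3 (adjusted p = 0.00351 to 0.0833 over all alternatives). Hook1, a linker of cargo to microtubules, had 35, 28 and 10 counts in ID8 and 1, 1 and 2 in KMF, a ratio of 18.4 (exact counting interval 6.88 to 69.3). It did not pass the filter on low counts and was called lower in all 8 alternatives that fitted it.

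Tek lies in a segment of chromosome 4 that the study's DNA analysis lists as a gain in KMF. Of 16 other genes on the list for this segment, 6 were listed in the RNA table. Of the 5 that were fitted, 4 were higher in KMF (Mysm1, Jun, Cyp2j6 and Cyp2j9) and Fggy was lower, and Hook1, not fitted, was also lower by its counts. Cyp2j6, a cytochrome P450 of arachidonic acid metabolism 1814 kb from Tek, was at 0.207, 0.552 and 0.162 FPKM in ID8 and at 40.3, 44.2 and 29.8 FPKM in KMF, close to the level of Tek. Its log2 fold change was 7.02 (SE 0.37, adjusted p = 1.6e-05, edgeR). Cyp2j9 had 0 counts in every ID8 library and 16, 13 and 19 in KMF, at least 5.29-fold higher against the floor of 3 counts per library. The Cyp2j genes are a family of near copies, and how reads were divided among them is uncertain. Of the 11 listed genes on the list for the segment before it, 8 were called lower in KMF and 1 higher. There were 2 higher without ID8 replicate 2 or with the replicate number as a block, and 3 higher without KMF replicate 1. Of the 8, Ptplad2 lost its call without ID8 replicate 1, ID8 replicate 2, KMF replicate 1 or KMF replicate 3 (adjusted p = 0.00465 to 0.0814 over its alternatives). Of the 2 listed on the list for the segment after it, Usp1 was called higher and Inadl lower. The DNA of these cells was not analysed here, and the part of copy number in the level of Tek was not tested.

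**Figure D5:**
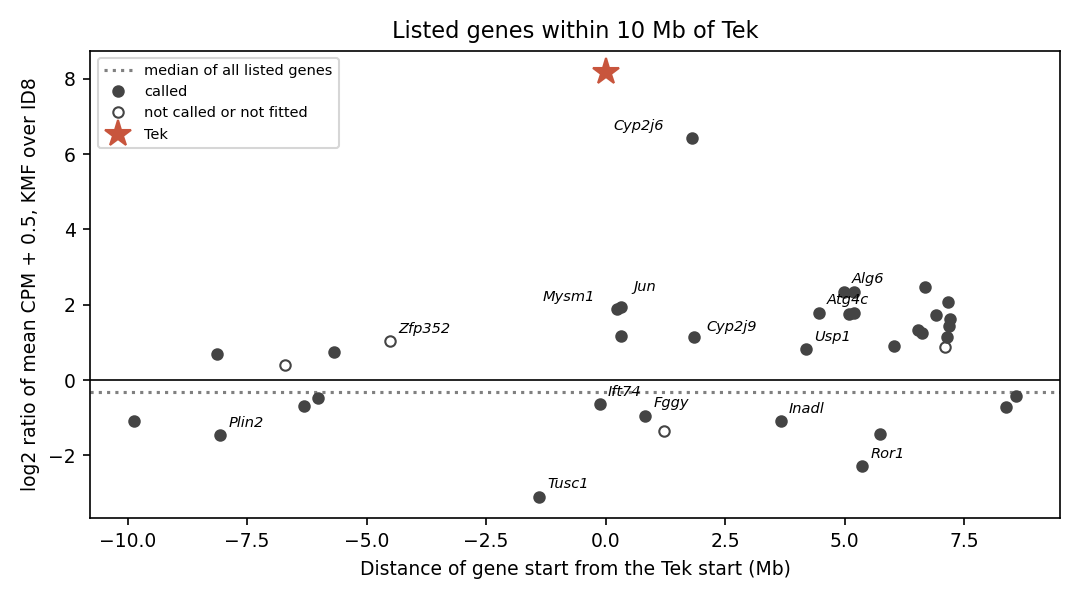
Log2 ratio of mean CPM + 0.5 in KMF over ID8 for the 38 listed genes within 10 Mb of Tek, against the distance of their start from the Tek start in Mb (negative toward the centromere). Filled points were called, open points were not called or not fitted, the star is Tek and the dotted line the median of all listed genes. Tek (8.18) and Cyp2j6 (6.42) stand far above the others, and most genes on the telomeric side lie above 0.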

How the data were processed

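Total RNA of 3 ID8 and 3 KMF tumorsphere cultures was enriched for poly-A RNA and sequenced by a service provider. The submitters' processing notes name CASAVA 1.8, STAR 2.5, DESeq2 and mm10, while the study's methods name TopHat2. The counting tool, the annotation and the strand setting are not given in the sources used here. The authors' deposited table holds a raw read count per gene and library, not normalized. It also holds FPKM that the authors scaled to gene length and to the fragments on genes, and the authors' p-value and adjusted p-value, all of the latter under 0.05, used here only to find that 17359 genes had been tested. The authors' fold changes and mean columns were not used. A spreadsheet had turned 14 gene names into dates, and these were restored by identifier. Gene positions match GRCm38, where 7286 of 7320 identifiers overlap their place in GENCODE M21.

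Library totals were recovered from counts, FPKM and lengths. They ranged from 23108407 to 33212313 fragments, of which listed genes took 52.8% to 55.9%. Pearson correlations of log2 CPM were 0.986 to 0.995 within a line and 0.866 to 0.879 between lines. Counts were fitted with edgeR 4.0.16 (glmQLFit, glmQLFTest, TMM, filterByExpr, two-sided, no covariate) in R 4.3.3, and p-values were adjusted by Benjamini-Hochberg over 17359 genes. The filter removed 353 genes. The fit was also run on simulated counts in which most genes did not change and all had the same dispersion. That setting is unlike this table of called genes, so the run does not show how the scaling behaves here. The design had planned a lower bound for the fold of Tek. Because ID8 libraries held 2 counts each and not 0, a ratio with an exact conditional interval is given instead. Distances and summaries used Python 3.11.15, numpy 2.4.6, pandas 2.3.3 and scipy 1.17.1, and figures matplotlib 3.10.9. The libraries had no molecular identifiers, so intervals and floors cover counting error only. The labels call the RNA samples of a line independent. Alternatives used DESeq2 1.42.0 and limma 3.58.1, other scalings and filters, a replicate block, and each library left out.

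Tek, the gene lists and the tests were chosen with earlier results of these data known. Named genes were every listed ligand, partner, endothelial marker and gene of the segment with Tek, called genes of the signalling, FOXO, ETS, endothelial factor and angiogenic ligand lists whose log2 fold change was 1 or more in size, the 5 receptor kinases above (2 exist) and below Tek in level and the 5 with the largest fold change, the 5 nearest genes on either side, and the 5 nearest in pattern. Other genes were named after their values were seen.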

Additional observations from a re-analysis of the deposited data

How the results depend on the processing

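Of the 61 named genes that were fitted, 48 kept their direction and their side of the threshold under all 14 alternative fits that gave a value, and none reversed. Endothelial markers called numbered 4 in the fit reported, 8 with DESeq2, 2 with at least 10 counts in every library, 2 with limma on log2(FPKM + 1), 2 with the replicate number as a block, and 1 to 5 when 1 library was left out (2 without ID8 replicate 1, 1 without KMF replicate 3). Mural markers called numbered 5, against 3 with the count minimum of 10, 2 with limma on log2(FPKM + 1), 3 with limma on log2(FPKM + 0.1) and 3 to 4 without 1 library. Ligands called went from 2 to 1 with either the count minimum or limma on log2(FPKM + 1), leukocyte markers from 2 to 0 with either, and endothelial factors from 8 to 4 with the count minimum. The count minimum and the limma fit on log2(FPKM + 1) test fewer low genes, and the cause of the other moves was not tested. Listed genes called numbered 6470, 5720 with the replicate number as a block, and 5189 to 5907 without 1 library. Deviations of same-numbered libraries correlated at 0.0665, -0.187 and 0.0693, and those of differently numbered libraries at -0.254 to 0.245. Same-numbered libraries thus did not stand out, but 3 libraries per line cannot settle whether the numbers pair the samples. Upper quartile scaling moved the median log2 fold change by -0.11. Tek ranked 768 of 7320 by CPM, which ignores length, and 1119 to 1519 by FPKM without 1 KMF library. Set against a floor of 3 counts per ID8 library, its fold was 1461 (1222 to 1627 without 1 library), and against 3 counts over the ID8 libraries together 4382. The latter floor lies below the 6 counts observed, so it is no bound. Of its 5 nearest patterns, 4 were kept with a pseudocount of 0.1 and 2 with log2(FPKM + 0.1). The share of higher neighbours was 55.6% within 2 Mb and 65.8% within 10 Mb. Depth limits Tek, Tie1 and Kdr in the line where they are near 0.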

Other observations

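Ligands of other angiogenic receptors were listed for 11 of 18 genes, with 3 called higher in KMF and 5 lower. The count of higher calls fell to 1 without ID8 replicate 1, without KMF replicate 2 and with upper quartile scaling. Vegfa, the main endothelial growth factor, was at 13.6, 23.3 and 40.6 FPKM in ID8 and at 30.3, 108.5 and 82.9 FPKM in KMF, so that the lines overlapped. Its log2 fold change was 1.56 (SE 0.51, adjusted p = 0.0441, edgeR), and 9 of 14 alternatives lost the call (adjusted p = 0.00388 to 0.148), among them those without ID8 replicate 1, ID8 replicate 2, KMF replicate 2 or KMF replicate 3. It was lowest in KMF replicate 1, where Tek was highest. Vegfb was at 31.1 FPKM in ID8 and 38.6 FPKM in KMF (adjusted p = 0.0202, edgeR), and this call was lost with upper quartile scaling (0.0943), without ID8 replicate 1 (0.0827) and without KMF replicate 2 (0.0624), with a range of 0.0167 to 0.0943. Fgf1, a fibroblast growth factor, rose from 1.00 ± 0.130 to 2.29 ± 0.804 FPKM (log2 fold change 1.23, SE 0.28, adjusted p = 0.0103, edgeR), and kept its call in all 14 alternatives (0.00049 to 0.0453). Kitl, the ligand of Kit, fell by 1.75 on the log2 scale (SE 0.11, adjusted p = 3.2e-05, edgeR), alongside its receptor. The angiogenesis inhibitor Thbs1 fell by 2.87 (SE 0.21, adjusted p = 5.2e-05, edgeR), and the chemokine Cxcl12 fell by 3.36 (SE 0.28, adjusted p = 9e-05, edgeR). Pdgfd, a pericyte growth factor, went from 35, 36 and 31 ID8 counts to 0 in all KMF libraries, at least 11.2-fold lower against the floor of 3 counts per library.

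Mural cells, the pericytes and smooth muscle cells that make Angpt1 for endothelial Tek, were represented by 5 of 12 markers. Notch3 and Mcam were at 0.357 and 0.602 FPKM in ID8 and at 2.27 and 2.94 FPKM in KMF, and were called higher with Cspg4. Rgs5 and Des were called lower. The call of Cspg4 was lost without any 1 of the libraries except KMF replicate 3 and with limma on log2(FPKM + 0.1) (adjusted p = 0.00151 to 0.0604 over its alternatives). That of Rgs5 was lost without ID8 replicate 1, ID8 replicate 2, KMF replicate 2 or KMF replicate 3 and with limma on log2(FPKM + 0.1) (0.00266 to 0.115). The summed level of these 5 was 2.49 to 4.06 FPKM in ID8 and 5.22 to 6.56 FPKM in KMF.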
